A study of Mus musculus with 2116 samples.

Results

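The NF-kB system was followed through 10 genes in single CD4+ T cells of the mouse spleen, out of 23725 genes in the counts table. The genes were chosen by name: the 5 subunits Nfkb1, Nfkb2, Rel, Rela and Relb, the inhibitor-family genes Nfkbia and Bcl3, the kinase Ikbke, and the targets Traf1 and Birc3. All 10 had UMIs in both libraries. Regulatory T cells (Treg, 816 cells) were set against conventional CD4+ T cells (Tconv, 1300 cells). Both came from spleens of 8-month-old males of the strain B6 Foxp3-Ires-Gfp, in which green fluorescent protein reports Foxp3, the transcription factor that defines Treg. Sorted live TCR beta+ CD4+ cells were counted by inDrops, a droplet method that tags each captured mRNA molecule with a unique molecular identifier (UMI). No treatment is named, and no animal is named for a cell. The sort text names GFP+ cells for both populations, but Foxp3 made up 380.1 of every 1000000 UMIs in Treg and 2.996 in Tconv.

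NF-kB proteins are dimers of the subunits, which bind kB sites in DNA. In a resting cell inhibitors of the IkB family hold them in the cytoplasm, and the IKK kinases release them by marking the inhibitor for destruction. The T cell receptor, CD28 and many TNF receptors switch on this path in T cells, and the path in turn induces several of its own inhibitors and subunits. Among the subunits, c-Rel has a known part in the making of Treg in the mouse.

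Each population was 1 library, so no difference has a replicate check and no p-value was computed. Levels are UMIs per 1000000 UMIs (CPM), with 1468203 UMIs in the Treg library and 2002752 in that of Tconv. Median depth per cell was 1688.5 UMIs in Treg and 1510.5 in Tconv. All brackets hold 95% intervals that cover counting error only. Several features of the libraries moved with the groups. Sequencing gave a median of 31.3 mapped reads per UMI in Treg cells and 18.7 in Tconv cells, and ribosomal protein genes held 26.1% of UMIs in Treg and 32.6% in Tconv. Marker lists of B, plasma, myeloid, dendritic, erythroid or platelet, and CD8 or NK cells were counted in every cell, and 83 Treg cells (10.2%) and 41 Tconv cells (3.15%) reached 3 UMIs of one of them. Of these lists, the B cell list summed to 748.5 CPM in Treg, with 11 of its 12 genes detected, and 199.7 CPM in Tconv, with 11 detected; Pax5 was at 0 in both. The myeloid list summed to 555.8 CPM in Treg and 306.1 CPM in Tconv, and the dendritic list to 340.6 CPM in Treg and 207.7 CPM in Tconv. In Treg 3 plasma cell genes were at 0, Jchain among them, and that list summed to 92.6 CPM, against 233.7 CPM in Tconv, where none was at 0. The erythroid or platelet list summed to 162.1 CPM in Treg and 1.997 CPM in Tconv and the CD8 or NK list to 64.02 CPM in Treg and 65.9 CPM in Tconv. A total of 12 pairs of barcode numbers occurred in both libraries, and leaving those cells out left the summed ratio given further on at 0.74. The T lineage list summed to 3321 CPM in Treg and 3591 CPM in Tconv, with all 7 genes detected in both.

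Promoter stretches are shown for 4 of the genes because the family is known for controlling its own inhibitors and targets. Each is the 250 bases before the start in the RefSeq promoter table (GRCm38.p6), 5′ to 3′ on the strand of the gene. Capitals mark matches of GGG, any 5 bases and CC, a short form of the kB site, on either strand. The stretch of Nfkbia lies at chr12:55492648-55492897, minus strand. The stretch of Bcl3 lies at chr7:19822756-19823005, minus strand. The stretch of Traf1 lies at chr2:34961773-34962022, minus strand. The stretch of Birc3 lies at chr9:7873171-7873420, minus strand.
Nfkbia: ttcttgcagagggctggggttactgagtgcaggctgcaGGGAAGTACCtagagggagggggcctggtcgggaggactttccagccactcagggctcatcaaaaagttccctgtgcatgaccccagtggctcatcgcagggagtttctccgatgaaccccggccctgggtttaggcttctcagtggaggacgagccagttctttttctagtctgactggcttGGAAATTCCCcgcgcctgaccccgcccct
Bcl3: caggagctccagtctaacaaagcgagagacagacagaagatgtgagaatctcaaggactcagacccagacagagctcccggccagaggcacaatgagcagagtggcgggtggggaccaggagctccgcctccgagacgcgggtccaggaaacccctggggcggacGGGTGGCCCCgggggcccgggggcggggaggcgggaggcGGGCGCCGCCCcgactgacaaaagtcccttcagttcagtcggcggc
Traf1: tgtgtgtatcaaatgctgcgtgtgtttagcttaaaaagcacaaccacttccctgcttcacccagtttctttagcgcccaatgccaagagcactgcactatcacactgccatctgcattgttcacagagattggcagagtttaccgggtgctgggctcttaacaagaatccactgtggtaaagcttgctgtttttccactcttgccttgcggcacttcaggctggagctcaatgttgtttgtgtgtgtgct
Birc3: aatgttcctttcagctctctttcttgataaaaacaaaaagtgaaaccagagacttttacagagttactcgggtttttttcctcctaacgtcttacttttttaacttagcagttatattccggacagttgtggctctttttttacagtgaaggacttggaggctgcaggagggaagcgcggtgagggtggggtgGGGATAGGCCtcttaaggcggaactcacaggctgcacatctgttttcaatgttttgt
Of the 8 genes matched in the table, 6 held this motif in the 300-base window from 250 bases before to 50 after the start. Ikbke and Traf1 held none there. The motif is loose: 53.5% of 27025 genes held it in at least 1 promoter, as did 50.8% of 32851 promoters. A stricter motif, GGGA, any 4 bases and CC, searched on both strands and chosen after the data were seen, occurred in the same number of genes, 6 of 8, in 22.9% of all genes and in 20.7% of all promoters. Every match of the stricter motif is also one of the looser motif. Nfkbia had 2 stricter matches, GGGAAGTACC far from the start and GGAAATTCCC beginning 29 bases before it. In Bcl3 the stricter match, GGGAAGTCCC, lay after the start and is not printed in the stretch. Birc3 had 1, GGGATAGGCC, 57 bases before the start. A match is a description of letters and says nothing of binding in these cells.

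NF-kB transcripts were more abundant in Treg than in Tconv for 9 of the 10 genes. The 10 genes together had 1871 UMIs (1274 CPM) in Treg and 1526 UMIs (761.95 CPM) in Tconv, a log2 ratio of 0.74 (0.64 to 0.84). Ikbke was the exception, lower in Treg. Of the 9 genes measured, that is, with 20 UMIs or more over both libraries, Relb, Bcl3 and Traf1 were at least 2-fold higher in Treg and 0 were at least 2-fold lower. Over all 8988 genes with that many UMIs, 8.61% were at least 2-fold higher, 3.6% at least 2-fold lower and 61.2% higher by any amount. The median log2 ratio was 0.88 over the 9 genes and 0.14 over all 8988.

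**Figure D1:**
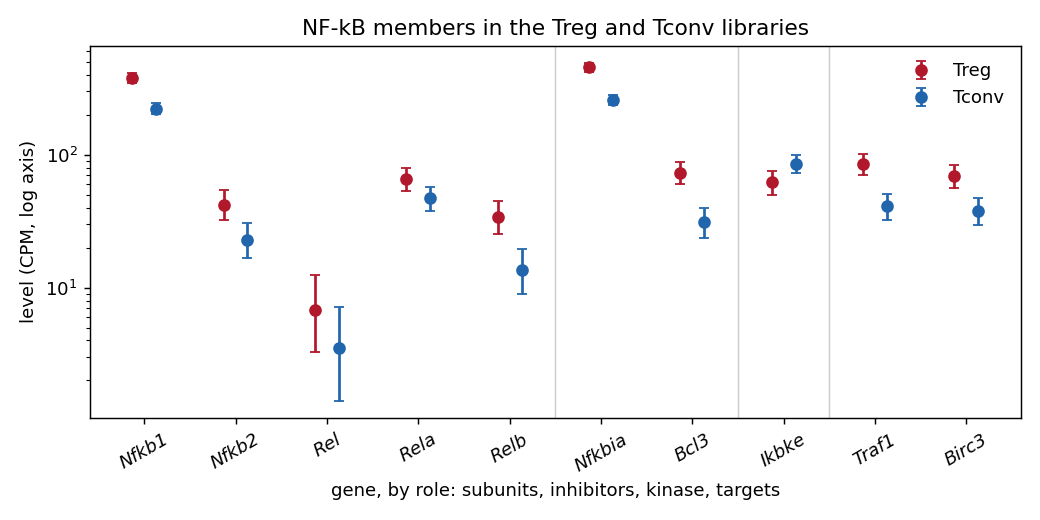
Level of each NF-kB gene in the Treg and Tconv libraries, in CPM on a log axis, with exact 95% Poisson intervals; thin lines part the subunits, the inhibitors, the kinase and the targets. Ikbke is the 1 gene whose Treg point lies below its Tconv point, and Nfkb1 and Nfkbia stand above all others in both libraries.

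Nfkb1 was the most abundant subunit. It encodes a precursor that restrains other subunits and is cut to the DNA-binding p50. It had 379.4 CPM in Treg and 222.2 CPM in Tconv, a log2 ratio of 0.77 (0.59 to 0.95). Rela encodes p65, the main activating partner of p50. Rela had 96 UMIs (65.4 CPM) in Treg and 94 UMIs (46.9 CPM) in Tconv, a log2 ratio of 0.48 (0.05 to 0.90). This was the smallest ratio among the genes higher in Treg, and its lower bound was close to 0.

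Nfkb2 and Relb are the pair of the non-canonical route, which TNF receptors such as OX40 and the lymphotoxin beta receptor use. Nfkb2 had 62 UMIs (42.2 CPM) in Treg and 46 UMIs (23 CPM) in Tconv, a log2 ratio of 0.88 (0.31 to 1.46). Relb had 50 UMIs (34.1 CPM) in Treg and 27 UMIs (13.5 CPM) in Tconv, a log2 ratio of 1.34 (0.63 to 2.07), the highest of the 10. Rel, which encodes c-Rel, was barely sampled, with 10 UMIs in Treg and 7 in Tconv. Its log2 ratio of 0.96 had an interval from -0.58 to 2.59, so a difference was not detectable at this depth. The composition of the subunit pool was alike in the libraries. Of the UMIs of the 5 subunits, Nfkb1 held 71.9% (68.6 to 75.01) in Treg and 71.9% (68.2 to 75.4) in Tconv. Rela held 12.4% (10.2 to 14.9) in Treg and 15.2% (12.5 to 18.3) in Tconv, and Relb 6.45% (4.83 to 8.42) in Treg and 4.36% (2.89 to 6.28) in Tconv. A UMI stands for 1 captured transcript whatever its length, but capture may differ between genes, so these shares are not shares of transcripts in the cell.

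The inhibitor genes were both higher in Treg. Nfkbia encodes IkB alpha, the classical cytoplasmic inhibitor and a direct target of the pathway. It had 456.3 CPM in Treg and 257.6 CPM in Tconv, a log2 ratio of 0.82 (0.66 to 0.99). Bcl3 is an atypical family member that works in the nucleus with p50 and p52 dimers. Bcl3 had 73.6 CPM in Treg and 31 CPM in Tconv, a log2 ratio of 1.25 (0.78 to 1.72). These 2 genes summed to 529.9 CPM in Treg and 288.6 CPM in Tconv, close to the sums of the 5 subunits, 527.9 CPM in Treg and 309.1 CPM in Tconv. Capture may differ between genes, so the closeness of these RNA counts is no balance of transcripts or proteins in the cell. Without Nfkb1 and Nfkbia, the other 8 genes had a log2 ratio of 0.64 (0.47 to 0.80).

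Ikbke encodes IKK epsilon, a kinase related to TBK1 that acts in interferon and NF-kB signalling. It had 62 CPM in Treg and 85.9 CPM in Tconv, a log2 ratio of -0.47 (-0.85 to -0.10). The targets lay the other way. Traf1, an adaptor of TNF receptors, had 85.1 CPM in Treg and 40.9 CPM in Tconv, a log2 ratio of 1.06 (0.64 to 1.48). Birc3, a ubiquitin ligase also called cIAP2, had 69.5 CPM in Treg and 37.5 CPM in Tconv, a log2 ratio of 0.89 (0.45 to 1.34).

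Other scalings lowered these ratios alike for every gene. A total without ribosomal protein genes moved each log2 ratio by -0.13, and trimmed-mean (TMM) factors moved it by -0.16. The median over all genes then stood at 0.01 without ribosomal protein genes and at -0.02 with TMM factors, while the median of the 9 genes stood at 0.75 and at 0.72. Traf1 then missed 2-fold, which left 2 genes past it, and 8 of the 9 stayed higher in Treg under both. Among these 8, Rela stood at 0.35 and at 0.32. Both shifts are larger than the 0.05 at which its interval began. Without cells carrying UMIs of other cell types, the summed ratio was 0.76. In those cells Nfkb1 stood at 392.8 CPM in Treg and 294.9 CPM in Tconv, and in all other cells at 377.5 CPM in Treg and 218.98 CPM in Tconv. Other genes went either way. In Tconv, Nfkb2 stood at 82.6 CPM in those cells and 20.3 CPM in the others, and Traf1 at 11.8 and 42.2 CPM. Bcl3 stood at 45.5 and 77.4 CPM in Treg and at 82.6 and 28.7 CPM in Tconv. In those Tconv cells each of these 3 genes had at most 7 UMIs. Without those cells the log2 ratio was 0.98 for Nfkb2, 1.43 for Bcl3 and 1.06 for Traf1. The part of sequencing depth per UMI in the difference was not tested.

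The genes lay on 8 chromosomes in the GENCODE annotation of GRCm38, matched by symbol. Relb (7:19606217-19629438) and Bcl3 (7:19808462-19822770), both on the minus strand, share chromosome 7, and Nfkb2 (19:46304320-46312385) and Rela (19:5637483-5648130) share chromosome 19, plus strand. Nfkb1 lies on chromosome 3 (135584655-135691547, minus), Nfkbia on chromosome 12 (55489410-55492647, minus), Ikbke on chromosome 1 (131254343-131279606, minus), Traf1 on chromosome 2 (34941750-34961772, minus), Birc3 on chromosome 9 (7848699-7873186, minus) and Rel on chromosome 11 (23736847-23770970, minus). Nfkb2 overlaps Psd and a long noncoding RNA gene, AC114539.1, both on the other strand. Psd had 0 UMIs in Treg and 3 in Tconv. Nfkb1 overlaps Gm43430, an unverified gene model on its own strand, so UMIs of both cannot be told apart. Bcl3 and Ikbke also overlap antisense genes. Whether the counting used strand is not given in the sources used here, so UMIs of Nfkb2, Bcl3 and Ikbke cannot be told apart from antisense reads.

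The level of a gene can differ because more cells carry it or because those cells carry more of it. To compare cells at 1 depth, each was thinned at random to 1000 UMIs, which kept 90.4% of Treg and 85.2% of Tconv cells and dropped the shallower ones. Nfkbia was found, with at least 1 UMI, in 27.6% (24.4 to 31.02) of these cells in Treg and 19.8% (17.5 to 22.2) in Tconv. For Nfkb1 the shares were 17.1% in Treg (14.4 to 19.99) and 12.4% in Tconv (10.5 to 14.5). The other shares were all below 8% in both libraries. Before thinning, 36.4% of Treg and 25.6% of Tconv cells had Nfkbia, and 20.6% of Treg and 16.3% of Tconv cells had Nfkb1.

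Bcl3 and Traf1 differed about as much in shares as in level. Bcl3 was present in 5.69% (4.13 to 7.62) of cells in Treg, against 2.62% (1.76 to 3.74) in Tconv. Traf1 reached 7.05% (5.31 to 9.14) in Treg, against 3.34% (2.36 to 4.57) in Tconv. Relb gave 2.03% in Treg (1.14 to 3.33) and 1.63% in Tconv (0.97 to 2.56), a ratio of shares of 1.25 (0.59 to 2.63), which was 1.86 when cells were thinned to 500 UMIs and 2.08 without thinning. Birc3 was detected in 5.42% (3.90 to 7.31) in Treg, against 3.16% (2.21 to 4.37) in Tconv. Nfkb2 was detected in 3.52% (2.31 to 5.12) in Treg, against 1.72% (1.04 to 2.67) in Tconv. Rela gave 5.01% in Treg (3.55 to 6.84) and 4.33% in Tconv (3.21 to 5.70), a difference within the intervals. Ikbke kept its opposite direction, with 5.56% in Treg (4.02 to 7.46) and 7.76% in Tconv (6.25 to 9.497). Rel was found in 2 thinned Treg cells and 5 thinned Tconv cells. These genes are used by many cell types, so no cell type without them was at hand to measure the share that free RNA gives.

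**Figure D2:**
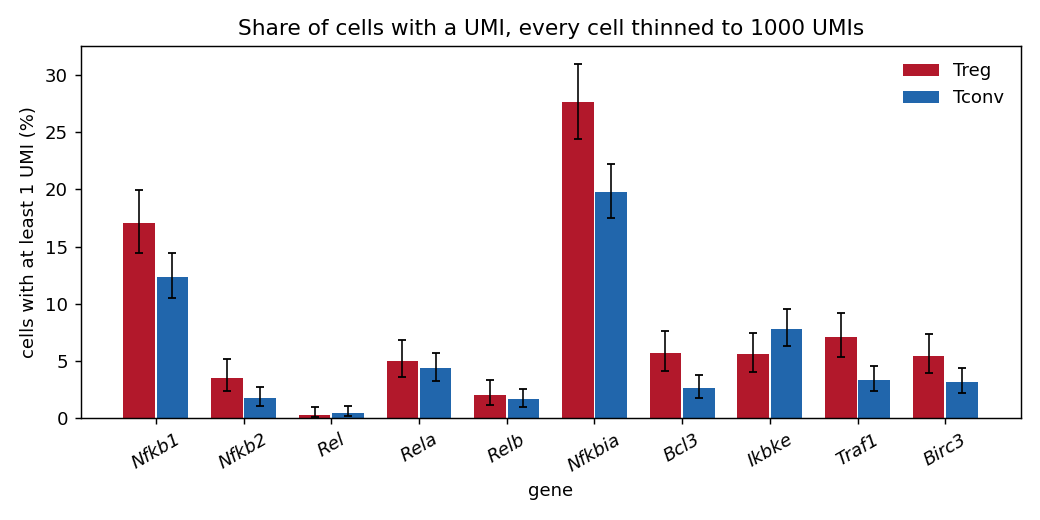
Share of cells with at least 1 UMI of each gene after thinning every cell to 1000 UMIs, in percent, with exact 95% Clopper-Pearson intervals (90.4% of Treg and 85.2% of Tconv cells). Nfkbia and Nfkb1 reach the largest shares, and Ikbke has the taller bar in Tconv.

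Nfkb1 stood out by how many UMIs its cells held. Cells with Nfkb1 held 3.32 UMIs of it on average in Treg, and in Tconv they held 2.10. Of the Treg genes whose total lay within 1.25-fold of its own, 1.16% (2 genes) had more UMIs per positive cell, and the median of such genes was 1.92. In Tconv 3.62% of them (11 genes) had more, with a median of 1.46. At least 5 UMIs of Nfkb1 were held by 54 Treg cells and 19 Tconv cells, and the largest number in 1 cell was 11 in Treg and 13 in Tconv. No single cell held more than 1.98% of the Nfkb1 UMIs in Treg or 2.92% in Tconv.

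The other genes were less clumped. Nfkbia had 2.26 UMIs per positive cell in Treg, where like genes had a median of 2.19, and 1.55 in Tconv, where the median was 1.49. Rela was at the other end, with 1.20 UMIs per positive cell in Treg and 1.04 in Tconv, and 91.3% of like genes in Treg and 97.9% in Tconv had more. After thinning, 51.6% of Treg cells with Nfkb1 and 34.3% of Tconv cells with Nfkb1 held at least 2 UMIs of it. UMIs of 1 cell are thus not independent, and the intervals of levels and ratios are too narrow. In thinned Treg cells the variance over the mean, which is 1 for independent UMIs, was 3.26 for Nfkb1, 2.099 for Nfkbia, 1.97 for Birc3, 1.73 for Nfkb2, 1.697 for Bcl3, 1.68 for Relb, 1.49 for Traf1 and at most 1.19 for Ikbke, Rela and Rel. In thinned Tconv cells it was 2.28 for Nfkb1, 1.53 for Traf1 and 1.49 for Nfkbia, and at most 1.396 for the others. These values are given without a background of other genes. Before thinning, genes like Nfkb2 in total had a median of 1.51 UMIs per positive cell in Treg and 1.19 in Tconv. In Treg 50.3% of like genes had more than Nfkb2, 55.2% more than Bcl3, 52% more than Relb and 46.2% more than Birc3.

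**Figure D3:**
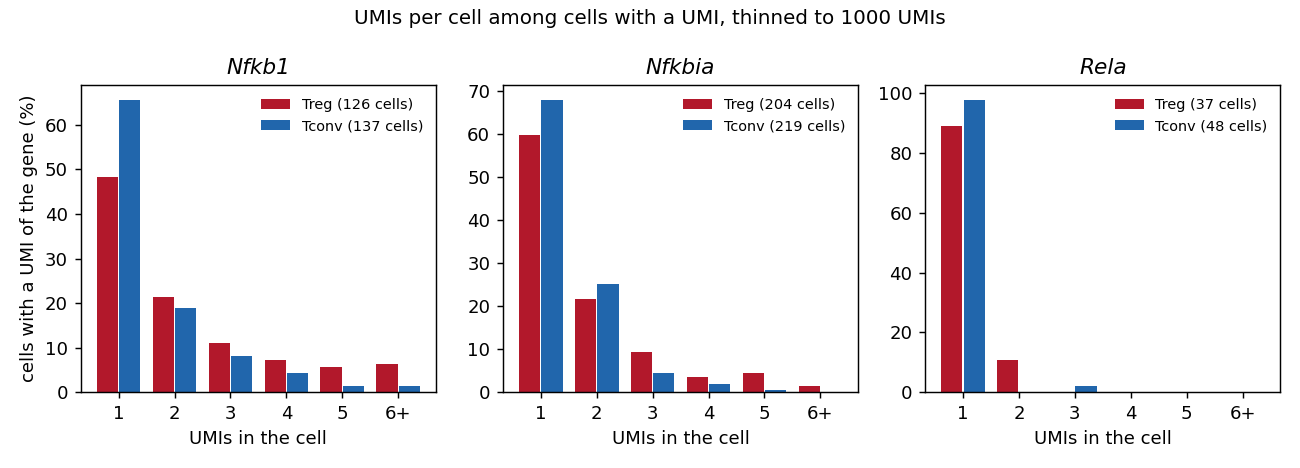
UMIs of Nfkb1, Nfkbia and Rela per cell, among cells thinned to 1000 UMIs that hold at least 1, as percent of those cells; legends give the number of cells. Nfkb1 has the longest tail in both libraries and the longer one in Treg, while nearly all cells with Rela hold 1 UMI.

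Detection of several genes in 1 cell was set against the product of their separate shares. None of the 10 genes was found in 44.6% (40.95 to 48.2) of cells in Treg, against 53.97% (50.98 to 56.9) in Tconv. The product of the separate shares gives 42.1% in Treg and 54.4% in Tconv. At least 1 subunit and 1 inhibitor gene occurred together in 69 Treg cells (54.2 to 86.2), against 59.5 from the product, and in 52 Tconv cells (39.1 to 67.7), against 47.4. Of the 45 pairs of genes, 12 in Treg and 8 in Tconv had a product of at least 5 cells. For none of these in either library did the interval leave out the product. Among the pairs with a smaller product, the interval lay above it for 1 of 33 in Treg, Nfkb2 with Relb, and for 2 of 37 in Tconv, Relb with Bcl3 and Relb with Ikbke, on at most 5 cells each. In Treg, cells with exactly 1 of the 10 genes made up 36.04% (32.6 to 39.6), below the 40.1% of the product, and cells with 0, 2, 3 or 4 genes all lay above their products, by less than their intervals. In Tconv 36.1% of cells (33.3 to 39.01) had exactly 1, against 35.4% from the product. The mean number of UMIs of all 10 genes per thinned cell was 1.32 in Treg and 0.767 in Tconv.

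Cells were then classed within each library by genes other than these 10. Effector-rich cells had at least 2 more thinned UMIs of an effector T list (S100a4, Itgb1, Lgals1 and others) than of a resting T list (Ccr7, Lef1 and others), and resting-like cells the reverse. These are ranges of a score and not cell types. Response cells, defined further on by genes that follow T cell receptor signals, were left out in an alternative. Of the thinned cells, 21.95% were effector-rich and 55.8% resting-like in Treg, and 6.05% (67 cells) were effector-rich and 82.3% resting-like in Tconv. In Treg 10.2% of cells lay next to the effector threshold and 19.8% next to the resting one, and in Tconv 3.25% and 11.5%. Median depth was 1876 UMIs in effector-rich and 1684 in resting-like Treg cells, and 1558 and 1587 in the same classes of Tconv.

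In Treg, effector-rich cells had slightly more UMIs of the summed NF-kB genes than resting-like cells, and single genes went both ways. The excess lay in Nfkbia, at 553.96 of 1317 summed CPM in effector-rich and 395.1 of 1168 in resting-like Treg cells. The other genes together showed none. The summed log2 ratio was 0.17 (0.008 to 0.34), with a lower bound close to 0 on an interval that is too narrow. It was 0.02 without response cells and 0.027 between the top and bottom of 3 groups cut by effector UMIs. None of the 9 measured genes was 2-fold higher or lower, where 9.37% of 6362 genes were higher and 8.25% lower, so 0 of 9 is no result about these genes. By any amount, 4 of the 9 were higher, where 54.8% of all genes were, and their median log2 ratio was -0.17 against 0.06 over all genes. Nfkbia was the 1 gene whose interval lay above 0, with 553.96 CPM in effector-rich and 395.1 CPM in resting-like Treg cells, a log2 ratio of 0.49 (0.22 to 0.75). It was 0.25 without response cells and 0.095 between the top and bottom of 3 groups cut by effector UMIs. Nfkb1 had 373.1 CPM in effector-rich and 352.4 CPM in resting-like Treg cells, a log2 ratio of 0.08 (-0.23 to 0.39). That of Nfkb1 was 0.41 with the UMIs of the thinned cells and 0.48 with another random thinning. It was -0.12 without cells that reached 3 UMIs of a marker list of another cell type. Nfkb2 stood at 0.77 (-0.18 to 1.70) and Bcl3 at 0.46 (-0.23 to 1.13). Rela stood at -0.77 (-1.70 to 0.07) and Relb at -0.77 (-2.36 to 0.58), both on few UMIs. Response cells made up 40.1% of effector-rich and 24.5% of resting-like Treg cells.

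In Tconv, 3 of the 9 genes were at least 2-fold higher in effector-rich cells, namely Nfkb2, Relb and Traf1, and 1, Ikbke, was at least 2-fold lower. Over 7081 genes, 12.2% were that much higher and 10.9% that much lower, and 57.3% were higher by any amount. Only 67 cells with 115940 UMIs made up the effector-rich class of Tconv. Nfkb2 had 7 UMIs (60.4 CPM) in effector-rich and 22 UMIs (14.6 CPM) in resting-like Tconv cells, a log2 ratio of 2.05 (0.57 to 3.32). Traf1 had 11 UMIs (94.9 CPM) in effector-rich and 54 UMIs (35.9 CPM) in resting-like Tconv cells, a log2 ratio of 1.40 (0.32 to 2.35). Over 7 other settings Nfkb2 ran from 0.77 to 3.24 and Traf1 from 0.69 to 2.18. The intervals of Relb, at 1.61 (-0.42 to 3.23), and Ikbke, at -1.03 (-2.67 to 0.23), reached across 0. The median was 0.42 over the 9 genes and 0.15 over all genes. Between the top and bottom of 3 groups cut by effector UMIs, the summed ratio in Tconv was 0.026, against 0.42 by the classes.

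A second axis was the response to the T cell receptor. Cells with at least 2 thinned UMIs of 16 response genes (Nr4a1, Egr1, Tnfrsf9, Cd69 and others) were set against cells with 0. In Treg 29% of thinned cells had a response by this list and 48.5% had none, and in Tconv 15.3% had one and 68.3% had none. The 22.5% of Treg cells and 16.3% of Tconv cells with 1 such UMI were left out. The list holds Tnfrsf4 and Tnfrsf9, which were far higher in Treg, so these shares do not compare receptor signals alone between the libraries. A list of 10 genes, without those in the NF-kB receptor and target lists used further on, gave a response in 16.7% of Treg and 9.66% of Tconv cells. Median depth was 1870 UMIs in response cells and 1684 in cells without in Treg, and 1684 and 1577 in the same classes of Tconv.

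In Treg, Relb and Bcl3 were at least 2-fold higher in response cells and 0 of the 9 measured genes were at least 2-fold lower. Over 6324 genes, 7.53% were that much higher and 6.77% that much lower, and 53.5% were higher by any amount, as were 8 of the 9. Bcl3 had 54 UMIs (125.7 CPM) in response cells and 34 UMIs (52.3 CPM) in Treg cells without, a log2 ratio of 1.27 (0.62 to 1.93). Relb had 26 UMIs (60.5 CPM) in response cells and 15 UMIs (23.1 CPM) in Treg cells without, a log2 ratio of 1.39 (0.42 to 2.41). Over 6 other settings Bcl3 ran from 0.89 to 1.54 and Relb from 0.57 to 1.41. Nfkbia had 663.5 CPM in response cells and 341.5 CPM in Treg cells without, a log2 ratio of 0.96 (0.70 to 1.22). At least 1 thinned UMI of Nfkbia was present in 35.5% of response cells (29.1 to 42.3) and 22.6% of Treg cells without (18.4 to 27.3).

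Nfkb1 had 500.5 CPM in response cells and 287.6 CPM in Treg cells without, a log2 ratio of 0.80 (0.51 to 1.09). It was found in 24.8% of response cells (19.1 to 31.1) and 12.6% of Treg cells without (9.32 to 16.5). The value for Nfkb1 depended on the list. With the 10 response genes outside the receptor and target lists used here, 16.7% of Treg cells had a response and 67.2% had none. Whether NF-kB acts on these 10 genes was not tested. The log2 ratio was then 0.18 for Nfkb1, against 0.82 for Nfkbia, 1.33 for Bcl3 and 1.30 for Relb. Nfkb2 changed direction, from 0.65 (-0.18 to 1.49) to -0.12, as did Traf1, from -0.15 (-0.77 to 0.45) to 0.39, both within those intervals. With the 16 genes, Birc3 stood at 0.24 (-0.53 to 0.99) and Rela at 0.21 (-0.54 to 0.94). Rel had 6 UMIs in response cells and 1 in Treg cells without, a log2 ratio of 3.18 with an interval from 0.14 to 8.71.

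In Tconv, Nfkb2 and Bcl3 were at least 2-fold higher in response cells and 0 of 9 were at least 2-fold lower, beside 5.49% of 6982 genes higher and 7.03% lower. By any amount, 8 of the 9 were higher, where 51.9% of all genes were. Bcl3 had 20 UMIs (64.7 CPM) in response cells and 33 UMIs (26.5 CPM) in Tconv cells without, a log2 ratio of 1.29 (0.41 to 2.13). Nfkb1 had 317.1 CPM in response cells and 194.2 CPM in Tconv cells without, a log2 ratio of 0.71 (0.35 to 1.05), and 0.79 with the 10-gene list. Over 6 other settings Bcl3 ran from 0.75 to 1.72. Nfkb2 stood at 1.01 (-0.18 to 2.12), and from 0.62 to 1.58 under those settings. Nfkbia had 281.5 CPM in response cells and 249.6 CPM in Tconv cells without, a log2 ratio of 0.17 (-0.19 to 0.52). Its interval lies below that of Treg, 0.70 to 1.22, but the 2 libraries have no replicates and the difference was not tested. The classes were also unlike, as response cells held a mean of 4.73 thinned response UMIs in Treg and 3.45 in Tconv. At a threshold of 3 UMIs the log2 ratio of Nfkbia was 1.18 in Treg and 0.51 in Tconv. The median of the 9 genes was 0.65 in Treg and 0.40 in Tconv, against 0.05 over all genes in Treg and 0.01 in Tconv.

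**Figure D4:**
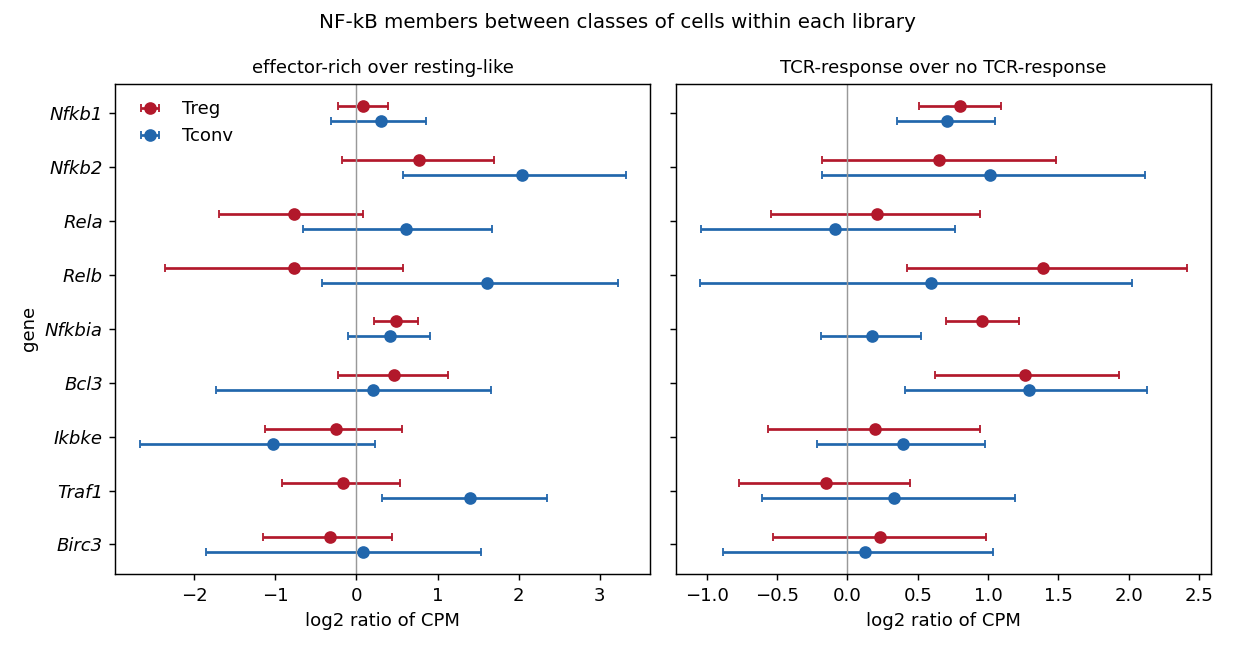
Log2 ratio of CPM between classes of cells within each library, with exact conditional 95% intervals: effector-rich over resting-like cells on the left, T cell receptor response over no response on the right. Rel is left out for its few UMIs. Bcl3 and Nfkb1 lie to the right of 0 in both libraries for the response, and Nfkbia lies far to the right in Treg.

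The difference between the populations was also taken within each class. In resting-like cells 9 of the 10 genes were higher in Treg, and their summed log2 ratio was 0.73 (0.60 to 0.86), near the value over all cells. Of the 9 genes measured in those cells 8 were higher in Treg, where 58.9% of 7943 genes were. Nfkb1 had 352.4 CPM in resting-like Treg and 196.2 CPM in resting-like Tconv cells, a log2 ratio of 0.84 (0.60 to 1.09). Birc3 had 72.1 CPM in resting-like Treg and 32.6 CPM in resting-like Tconv cells, a log2 ratio of 1.14 (0.56 to 1.73). Bcl3 stood at 1.16 (0.55 to 1.77), Traf1 at 1.11 (0.55 to 1.67) and Ikbke at -0.52 (-1.03 to -0.02).

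In effector-rich cells the picture was less even. There 5 genes were higher and 4 lower in Treg, Rel having 2 UMIs in Treg and 0 in Tconv, and the summed log2 ratio was 0.49 (0.18 to 0.80). Of the 8 measured there 5 were higher, close to the 56.3% of 3909 genes. In intermediate cells 7 of the 9 measured were higher, where 55.6% of 4142 genes were. Nfkbia had 553.96 CPM in effector-rich Treg and 327.8 CPM in effector-rich Tconv cells, a log2 ratio of 0.76 (0.25 to 1.30). Relb stood at -1.0 (-3.08 to 1.27) and Traf1 at -0.46 (-1.55 to 0.72), on 4 and 11 UMIs in Tconv. Among response cells the summed ratio was 0.83 (0.63 to 1.03), with 9 of 10 genes higher in Treg, and 8 of the 9 measured, where 59.3% of 5172 genes were. Among cells without a response it was 0.52 (0.37 to 0.66), with 8 of 10 higher, and 8 of the 9 measured, where 58.3% of 7589 genes were. Nfkbia stood at 1.24 (0.89 to 1.60) among response cells and at 0.45 (0.20 to 0.71) among cells without.

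By summed CPM of the 10 genes, intermediate Treg cells came first with 1426, then effector-rich Treg cells with 1317 and resting-like Treg cells with 1168. Intermediate Tconv cells followed with 1021.9, effector-rich Tconv cells with 940.1 and resting-like Tconv cells with 702.3. By these values every Treg class was above every Tconv class. The gap was smallest between resting-like Treg and intermediate Tconv cells, and these sums have no intervals and were not rescaled. The log2(CPM + 10) of 2669 genes with at least 200 UMIs was set beside the sum of the 10 genes over the 6 groups. Those that ran most like the sum were Socs1 (Pearson r 0.99), Psmb6 (0.98), Pou2f2 (0.98), Pak2 (0.97) and Mga (0.97). In all, 40 genes had r above 0.9, and the 6 groups come from 2 libraries, so these values only describe a shared order.

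Other genes of the pathway were taken from lists, whose medians were not tested against each other. Beside their counts stand the shares over all 8988 measured genes, 8.61% at least 2-fold higher in Treg and 3.6% at least 2-fold lower. Of the 13 measured receptor genes of 18 listed, 5 were at least 2-fold higher in Treg and 0 lower, with a median log2 ratio of 0.77, or 0.55 over the 10 with at least 50 UMIs. Tnfrsf4 (OX40) had 271.8 CPM in Treg and 10.5 CPM in Tconv, a log2 ratio of 4.70 (4.06 to 5.40). Tnfrsf9 (4-1BB) stood at 3.72 (3.12 to 4.37), Tnfrsf1b (TNF receptor type 2) at 2.21 (1.79 to 2.65) and Tnfrsf18 (GITR) at 2.18 (1.90 to 2.47). All are costimulatory TNF receptors known to be abundant on Treg, so the list is no independent view of the pathway.

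None of 16 measured adaptor genes passed 2-fold, with a median of 0.25; Tab2, which links TRAF proteins to TAK1, stood at 0.70 (0.45 to 0.95), Cflar, an inhibitor of caspase activation, at 0.47 (0.35 to 0.60), Irak1 at 0.27 (0.15 to 0.38) and Traf3ip2, the adaptor of the IL-17 receptor, at -0.94 (-1.70 to -0.22). The 4 IKK and TBK1 genes had a median of -0.03. Ikbkb stood at -0.41 (-0.87 to 0.03), Chuk at -0.38 (-0.85 to 0.08), Ikbkg at 0.35 (-0.12 to 0.83) and Tbk1 at 0.32 (-0.14 to 0.78).

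The other IkB genes were higher in Treg in 5 of 5, 1 of them by 2-fold, with a median of 0.53. Over all measured genes 61.2% were higher and 8.61% by 2-fold. Nfkbiz, a nuclear IkB, had 33.4 CPM in Treg and 14.5 CPM in Tconv, a log2 ratio of 1.20 (0.51 to 1.92). Nfkbid stood at 0.90 (0.31 to 1.51), Nfkbie at 0.53 (-0.20 to 1.26) and Nfkbib at 0.40 (-0.16 to 0.96). Among 14 measured negative regulators of 17, 2 passed 2-fold upward and 0 downward, with a median of 0.14 like that of all genes. With so few genes, 1 of 5 and 2 of 14 past 2-fold are no result about these lists. Tnfaip3, the ubiquitin-editing enzyme A20, had 59.3 CPM in Treg and 24.97 CPM in Tconv, a log2 ratio of 1.25 (0.73 to 1.78). Nlrc5 stood at 1.11 (0.66 to 1.56), the A20 partner Tnip1 at 0.91 (0.62 to 1.21) and Sharpin at 0.76 (0.33 to 1.19).

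Of 27 measured other target genes of 37, 12 were at least 2-fold higher in Treg and 1 was at least 2-fold lower. Over all measured genes these shares were 8.61% and 3.6%. The median of the 27 was 0.95, or 0.71 over the 24 with at least 50 UMIs. Il2ra, the interleukin 2 receptor alpha chain, stood at 6.01 (5.23 to 6.93). Cd83, an activation marker, stood at 4.17 (2.98 to 5.66), Ebi3, a subunit of interleukins 27 and 35, at 3.62 (1.56 to 6.77) and Bcl2l1, which encodes the survival protein BCL-xL, at 3.01 (1.97 to 4.21). Many of these genes also answer other factors and mark Treg or activated cells, so their count is not a readout of NF-kB alone.

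**Figure D5:**
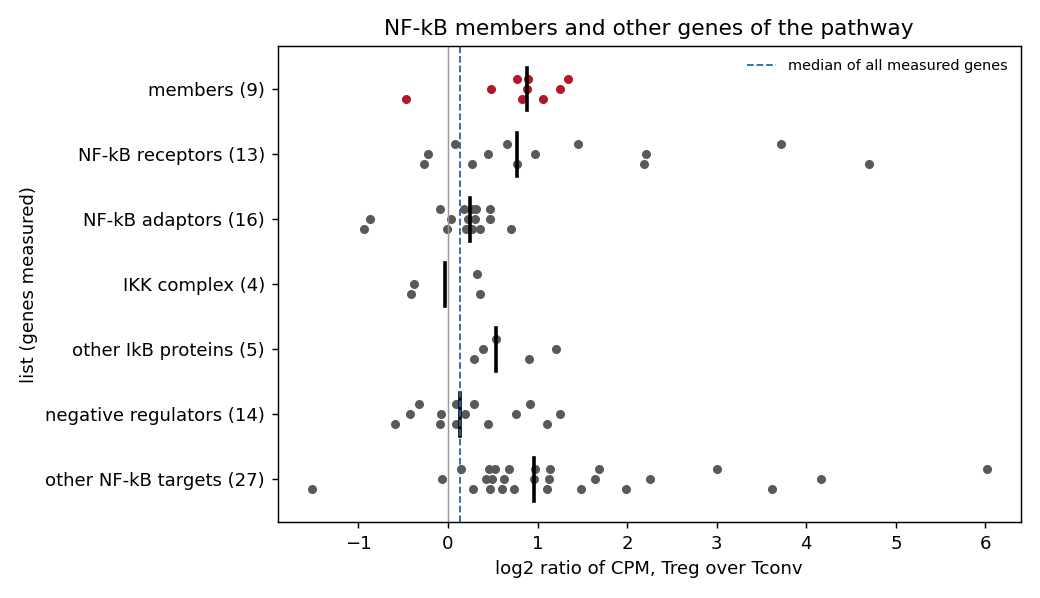
Log2 ratio of CPM, Treg over Tconv, for the measured NF-kB subunits, inhibitors, kinase and targets (red) and the other pathway lists (grey), 1 point per measured gene; black bars are list medians. The genes in red, the receptors and the other targets have medians of 0.88, 0.77 and 0.95, and the IKK complex one of -0.03.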

How the data were processed

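UMI counts per gene and cell were deposited as raw whole numbers, for 23725 genes and 2116 cells; the unit was read from the values. Per the submitters' processing notes, TopHat2, SAMtools and mm10 were used, in roles not stated; no annotation or UMI counter is named. Groups follow the title codes of the cells, which were read as Treg and Tconv from the series title. The labels give 1 library per group.

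UMIs were summed per library or class and divided by the total. Sums have exact Poisson intervals, ratios exact conditional (Clopper-Pearson) intervals and shares exact Clopper-Pearson intervals, all at 95%. These cover counting error only and treat UMIs as independent, and the ratio step was tested on simulated data. A gene counted as measured with at least 20 UMIs in the groups compared, and as past the fold at 2-fold. Where a listed gene had 0 UMIs in a group, a floor of 3 counts over the group was used. Cells were thinned once to 1000 UMIs with a fixed seed to set shares and classes, and all UMIs of the classed cells were then summed. No doublet caller was run, and cells with at least 3 UMIs of a marker list of another cell type were left out in an alternative.

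The 10 genes, the lists and the classes were chosen with earlier results of these data known. Named from each pathway list were the 4 measured genes whose interval bound lay farthest from a ratio of 1. Another list of the pathway is not reported here. The 5 genes most like the summed genes were chosen by Pearson r over the 6 groups. TMM factors came from edgeR 4.0.16 in R 4.3.3, and the rest was computed in Python 3.11.15 with numpy 2.4.6, scipy 1.17.1 and pandas 2.3.3. Promoters are from RefSeq (GRCm38.p6), where 8 of the 10 genes matched, and positions from GENCODE (GRCm38, the same assembly as mm10).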

Additional observations from a re-analysis of the deposited data

Results flagged for a closer look

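For 4 genes the log2 ratio between classes of cells pointed one way in Treg and the other way in Tconv. Each library is 1 sample and the difference was not tested for any of them. Between effector-rich and resting-like cells, Relb had -0.77 in Treg and 1.61 in Tconv, a difference of -2.38. Traf1 had -0.17 in Treg and 1.40 in Tconv, a difference of -1.57. Rela had -0.77 in Treg and 0.61 in Tconv, a difference of -1.38. Birc3 had -0.33 in Treg and 0.08 in Tconv, a difference of -0.41. Between T cell receptor response cells and cells without, Traf1 had -0.15 in Treg and 0.33 in Tconv, a difference of -0.49. Rela had 0.21 in Treg and -0.09 in Tconv, a difference of 0.30. In effector-rich Tconv cells these ratios rest on 4 UMIs of Relb, 11 of Traf1, 8 of Rela and 4 of Birc3. Of the 12 intervals, 11 reached across 0, all but that of Traf1 between effector-rich and resting-like Tconv cells. Under other settings the opposite directions did not always hold. Birc3 in Tconv kept its direction in 3 of 7, running from -1.48 to 0.81, and in Treg reached 0.02 in 1. Traf1 in Treg was 0.12 between effector-rich and resting-like cells with the UMIs of thinned cells, and 0.39 between response cells and cells without with the 10-gene list.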

How the results depend on the processing

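No paired analysis was possible because each group is 1 library. Over all alternatives of the 75 results with an interval, 29 values moved beyond it, 2 reversed and the others stayed within it. The summed log2 ratio of Treg over Tconv, 0.74, was 0.61 when ribosomal protein genes left the total and 0.59 by TMM. The log2 ratio of the shares of thinned cells with a UMI of any of the 10 genes was 0.27. That is another measure, in which a cell counts once however many UMIs it holds. Within classes, an alternative added after the data were seen, the summed UMI ratio was 0.49 in effector-rich, 0.48 in intermediate and 0.52 in cells without a response. The 2 reversals, counted for ratios past 2-fold, were Relb, -1.0, and Traf1, -0.46, both in effector-rich cells. The summed response ratio in Treg, 0.76, was 0.54 at a threshold of 1 UMI and 0.56 with the 10-gene list, also added later. That in Tconv, 0.44, was 0.64 at a threshold of 3 UMIs. The effector ratio in Tconv, 0.42, was 0.026 between the top and bottom of 3 groups by effector UMIs. Nfkb1, Nfkbia and Bcl3 kept their direction between Treg and Tconv under all 14 alternatives; Nfkb2, Rela, Relb, Ikbke and Traf1 did not in effector-rich cells, Birc3 did not in intermediate cells, and Rel did not in 4 of 13. Of all measured genes, 8.61% were at least 2-fold higher and 3.6% at least 2-fold lower in Treg; these shares were 5.87% and 2.08% at a minimum of 50 UMIs, and 20.3% and 11.04% (2990 and 1626 genes) with no minimum. Of the genes past 2-fold, 70.5% were higher in Treg, against 59.4% and 57.6% by these 2 scalings.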
